A study of Mus musculus with 6 samples.

Results

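The genes described here are 10 that carry amino acids into cells or belong to the stress response run by the transcription factor ATF4: Slc7a5, Slc3a2, Slc7a1, Slc7a11, Asns, Atf4, Chac1, Trib3, Sesn2 and Ddit3. Each of the 10 was taken from the rows that the array's annotation gives to exactly 1 symbol, and where a gene had several rows, the row was to be chosen by its mean over the 6 arrays. All 10 genes had 1 row each, so that choice never arose, and no row shared between symbols named any of them. They are 10 of the 21506 genes measured with a single symbol.

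RNA was measured in left ventricular tissue from 3 sickle and 3 control male mice, 1 array per mouse. Per the labels, sickle mice were homozygous for Hbbtm2(HBG1,HBB*)Tow, an engineered human gamma- and sickle beta-globin allele, and also carried Hbatm1(HBA)Tow, a human alpha-globin allele. Control mice were homozygous for Hbatm1(HBA)Tow and for Hbbtm3(HBG1,HBB)Tow, the version that does not sickle. Both groups thus carried human globin alleles on a mixed B6;129 background, were aged 10 to 14 weeks in the labels' general statement on animals, and had no other treatment named for the RNA samples. Values are on the log2 scale, so a difference of 1 is a doubling.

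ATF4 is made when kinases phosphorylate the translation factor eIF2, in response to missing amino acids, misfolded protein, viral RNA or, in red-cell precursors, missing heme. It then raises genes for amino acid import, amino acid synthesis and tRNA charging, and, when stress lasts, genes that slow growth or favour cell death. The large neutral amino acid transporter LAT1 joins both themes: its transport subunit is encoded by Slc7a5, its chaperone subunit (CD98 heavy chain) by Slc3a2, and it is abundant in dividing and blood-forming cells.

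Tissue identity and single arrays set limits on every value below. Ventricular cardiomyocyte markers were bright, with differences between groups from -0.15 to 0.08. Myh6 lay between 13.16 and 13.25 in sickle and between 13.17 and 13.28 in control arrays. Myl2 was lower in sickle replicate 3 (8.57) than in the other 5 arrays (9.15 to 9.31). Myl3 was lower there too (11.60, against 11.89 to 12.01). Sickle replicate 3 stood apart, where 340 genes exceeded the average of the other 2 sickle arrays by more than 2-fold; the same count was 13 to 25 in each of the 5 remaining arrays. Control replicate 3 was high for some atrial markers: Sln was 8.08 there and 3.10 to 3.36 in the other 5 arrays. Myl7 was 7.75 there and 4.31 to 4.78 in the others, and Myl4 (5.93) was also highest there. The remaining atrial markers were not: Bmp10 was highest in control replicate 2 (5.33), and Nppa (13.66) and Dkk3 (7.93) in sickle replicate 3. Values without sickle replicate 3 are given beside those list medians and named genes that it moved most.

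Slc7a5 was the 1 gene of the 10 called higher in the sickle ventricle, and the genes that share its transporter complex or its ATF4 regulation did not pass the test beside it. Of the 10, 1 was called higher, 0 lower and 9 were not called in limma's test at an adjusted p of 0.05, while 0.181% of all genes were called in either direction and 0.167% higher. Values in the 3 sickle arrays lay wholly above those of the 3 control arrays for 2 of the 10, Slc7a5 and Asns, and wholly below for 0; over all genes 16.0% had no overlap in either direction and 7.61% lay above. The median difference of the 10 was 0.09 (0.00 without sickle replicate 3), and that of all genes was -0.01.

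Slc7a5 measured 7.67, 8.05 and 8.37 in sickle replicates 1, 2 and 3, against 6.52, 6.76 and 6.78 in control replicates 1, 2 and 3. The lowest sickle array was above the highest control array, and sickle replicate 3 was the highest of all. The means were 8.03 ± 0.35 in sickle and 6.69 ± 0.14 in control (SD, n = 3 each). The difference was 1.34 ± 0.18 (SE), a 2.54-fold rise with a 95% interval of 1.90 to 3.38-fold (limma adjusted p = 0.0484). By p-value it ranked 37 among the 21506 genes, close to the threshold. Leaving out single arrays, the difference lay between 1.17 and 1.52, but the call was kept only without sickle replicate 1 (limma adjusted p = 0.0201). Leaving out sickle replicate 3 gave 1.17 (limma adjusted p = 0.0748), without control replicate 3 it was 1.39 (limma adjusted p = 0.230), and without both it was 1.22 (limma adjusted p = 0.273, a fit in which 0 genes of all passed and 1785 had an unadjusted p under 0.05). The limma adjusted p was 0.141 without sickle replicate 2, 0.237 without control replicate 1 and 0.261 without control replicate 2. In bulk tissue a change in the number of cells of a type and a change in RNA per cell cannot be told apart.

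Slc3a2, whose protein holds LAT1 and several related transporters at the cell surface, did not show that pattern. It measured 8.89, 8.66 and 9.39 in sickle replicates 1, 2 and 3, against 8.82, 8.91 and 8.95 in the control arrays. Sickle replicate 2 was the lowest of the 6 arrays and sickle replicate 3 the highest, so the groups overlapped. The difference was 0.09 ± 0.18 (SE; limma adjusted p = 0.906), with a 95% interval from -0.33 to 0.50, and it was -0.12 without sickle replicate 3. The interval of Slc3a2 ended below the lower bound of Slc7a5, 0.93, though the difference between the 2 genes was not itself tested.

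Slc7a1, the cationic amino acid transporter CAT1 that brings in arginine and lysine, measured 7.96, 7.89 and 7.59 in sickle arrays, against 7.63, 7.76 and 7.65 in control arrays. Sickle replicates 1 and 2 were above all control arrays and sickle replicate 3 was below them. Its difference was 0.13 (95% interval -0.15 to 0.41), or 0.24 without sickle replicate 3 (limma adjusted p = 0.518).

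Slc7a11, the cystine importer that feeds glutathione synthesis, was dim, at the 13.0 percentile of array brightness over all genes. It measured 3.35, 3.45 and 3.43 in sickle arrays, against 3.36, 3.42 and 3.43 in control arrays. The 6 values were close together and the groups overlapped, with a difference of 0.01 (95% interval -0.20 to 0.21). A row this dim may follow its transcript poorly, and the files give no detection call.

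**Figure D1:**
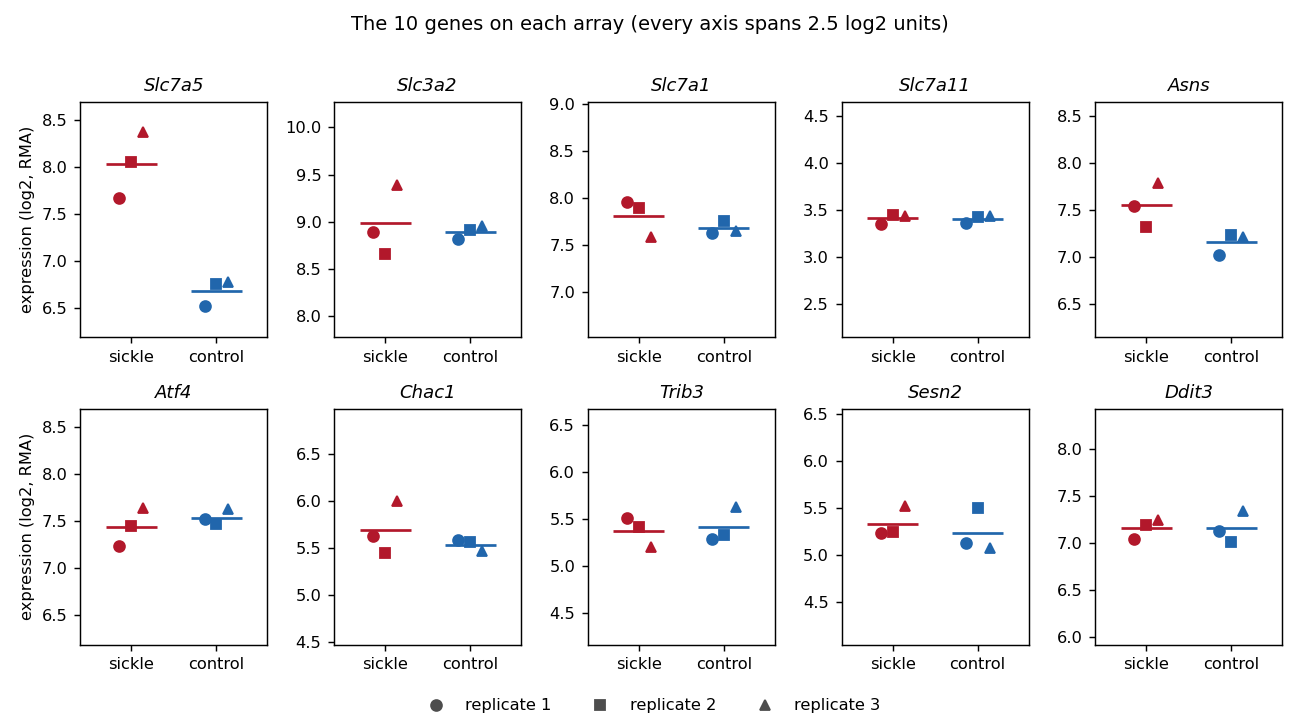
Log2 expression of the 10 genes on each array, sickle left and control right, with the mean of each group as a bar and every vertical axis spanning 2.5 log2 units. Slc7a5 shows the widest gap (8.03 in sickle and 6.69 in control on average), Asns a narrower one (7.55 and 7.16), and the other 8 genes overlap between groups.

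Among the ATF4 genes proper, Asns was the nearest to a change. Asns encodes asparagine synthetase and is a classic target of ATF4 when amino acids run short. It measured 7.55, 7.32 and 7.79 in sickle replicates 1, 2 and 3, against 7.02, 7.24 and 7.22 in the control arrays. All 3 sickle values were above all 3 control values, with sickle replicate 2 only just so. The difference of 0.39 ± 0.14 (SE; 1.31-fold, 95% interval 1.05 to 1.64-fold) did not pass (limma adjusted p = 0.520), and it was 0.27 without sickle replicate 3.

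Atf4, the regulator's own transcript, measured 7.23, 7.44 and 7.64 in sickle arrays, against 7.52, 7.46 and 7.62 in control arrays. Sickle replicates 1 and 2 were below every control array and sickle replicate 3 was just above them. The difference was -0.10 (95% interval -0.38 to 0.19; limma adjusted p = 0.840). ATF4 protein is set largely by translation, which arrays do not measure.

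The stress effectors downstream of ATF4 gave small differences of either sign. Chac1, which breaks down glutathione, measured 5.63, 5.45 and 6.0 in sickle arrays, against 5.58, 5.56 and 5.47 in control arrays. Its high value lay in sickle replicate 3, and the difference of 0.16 (95% interval -0.18 to 0.50) became 0.00 without that array. Trib3, a pseudokinase that restrains ATF4 and AKT signalling, measured 5.51, 5.41 and 5.20 in sickle arrays, against 5.29, 5.33 and 5.63 in control arrays. Here sickle replicate 3 was the lowest array and control replicate 3 the highest, and the difference was -0.04 (95% interval -0.35 to 0.26), or 0.15 without these 2 arrays.

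Sesn2, the leucine-binding sestrin that holds back mTORC1, measured 5.23, 5.24 and 5.52 in sickle arrays, against 5.13, 5.5 and 5.08 in control arrays. One array of each group was high, sickle replicate 3 and control replicate 2, and the difference was 0.09 (95% interval -0.25 to 0.43). Ddit3, which encodes the pro-death factor CHOP, measured 7.05, 7.19 and 7.25 in sickle arrays, against 7.13, 7.01 and 7.34 in control arrays. The groups covered nearly the same range, with a difference of 0.00 (95% interval -0.27 to 0.27). Over the 9 genes other than Slc7a5 the limma adjusted p lay between 0.520 and 1, and the highest upper bound of an interval was 0.71, for Asns. Sickle replicate 3 was the highest sickle array for Slc3a2, Asns, Atf4, Chac1, Sesn2 and Ddit3; the part of that array's other changes in these values was not tested.

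**Figure D2:**
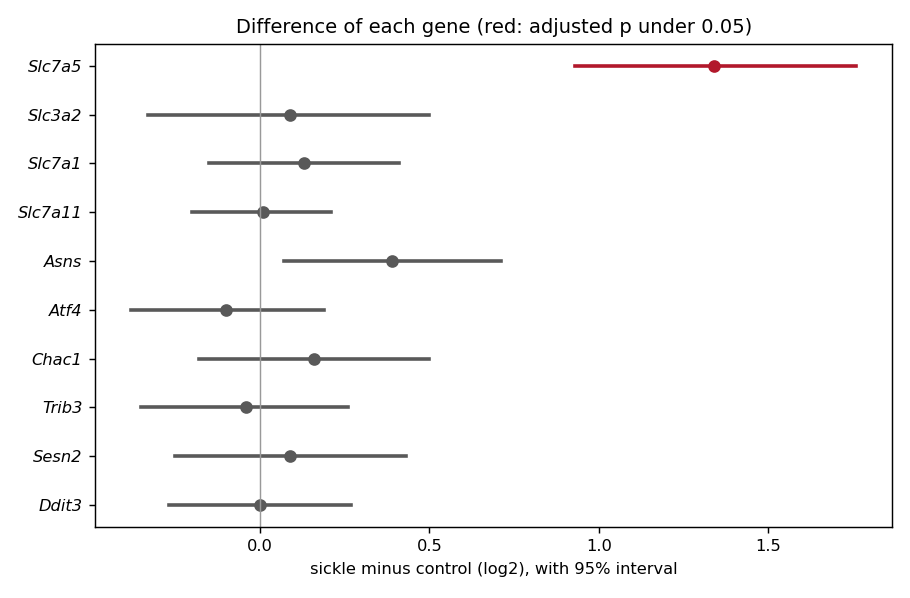
Difference of each of the 10 genes (sickle minus control, log2) with its 95% interval from limma, in red where the adjusted p was under 0.05. Slc7a5 lies at 1.34 with an interval from 0.93 to 1.76, Asns at 0.39 from 0.07 to 0.71, and the intervals of the other 8 genes include 0.

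Some of the promoters hold the letters through which ATF4 is known to act. ATF4 binds with C/EBP factors at a composite element, written here as TGATGNAAN and searched on both strands. RefSeq promoters (GRCm38.p6, 250 bases before to 50 after the start) covered 10 promoters of 9 of the genes, all but Slc7a5. Of these 10 promoters, 4 held the element, those of Asns, Chac1, Slc7a11 and Trib3, against 3.95% of all 32851 promoters in the table; the match in Trib3 lay after the start. The stretches around the 3 genes with matches before the start are shown because they carry the defining element, in capitals, each read on the gene's own strand.
Asns, chr6:7693210-7693252, minus strand, bases -43 to -1 from the start: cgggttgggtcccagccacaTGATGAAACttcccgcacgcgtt
Chac1, chr2:119351028-119351076, plus strand, bases -214 to -166: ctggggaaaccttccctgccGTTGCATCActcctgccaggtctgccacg
Slc7a11, chr3:50443633-50443699, minus strand, bases -86 to -20: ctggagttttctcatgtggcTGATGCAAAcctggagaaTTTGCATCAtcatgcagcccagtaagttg
In Chac1 the element lies on the opposite strand, and Slc7a11 holds 2 copies that face each other. None of these 3 genes passed the test (differences of 0.39 for Asns, 0.16 for Chac1 and 0.01 for Slc7a11). Among 27 promoters of other ATF4 targets 7 held the element, and among 29 promoters of red-cell genes 0 did. AGATAA, a form of the site bound by GATA factors, was found in 1 promoter of the 10 (Ddit3, after the start), in 2 of the 27, in 8 of the 29, and in 11.2% of all promoters. A match describes the letters and does not show binding.

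The wider ATF4 programme was then set beside Slc7a5. Of 27 measured ATF4 targets outside the 10, 0 were called, 15 had a positive difference and the median was 0.07, or 0.01 without sickle replicate 3. The 3 with the smallest p were Aldh18a1 of proline synthesis, Ppp1r15a, the GADD34 subunit that reverses eIF2 phosphorylation, and the arginine transporter gene Slc7a3. Aldh18a1 measured 6.66, 6.41 and 6.57 in sickle arrays, against 6.09, 6.05 and 6.21 in control arrays, without overlap, a difference of 0.43 ± 0.10 (SE; limma adjusted p = 0.370). Ppp1r15a differed by 0.46 ± 0.15 (limma adjusted p = 0.492), also without overlap, and Slc7a3 by 0.18 ± 0.10 (limma adjusted p = 0.627). Psat1 and Shmt2, of serine and glycine synthesis, differed by -0.04 and -0.05. Ddit4, an mTORC1 inhibitor, differed by -0.40 ± 0.51 (SE, limma adjusted p = 0.838), or -0.90 without sickle replicate 3 (limma adjusted p = 0.569). Ddit4 was widely spread, at 6.9, 7.15 and 8.54 in sickle arrays, against 7.01, 8.39 and 8.39 in control arrays. Psat1, Shmt2 and Ddit4 were chosen after their values were seen.

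Differences were small among charging enzymes and upstream kinases. Of 11 measured cytosolic tRNA synthetases 0 were called, and their differences ran from -0.10 (Iars) to 0.09 (Eprs and Cars). Of 7 measured genes for eIF2 kinases and the factors around them 0 were called, with 7 positive differences and a median of 0.15, or 0.08 without sickle replicate 3. Eif2ak1, the heme-regulated kinase that is prominent in red-cell precursors, measured 8.31, 8.36 and 8.48 in sickle arrays, against 8.18, 8.05 and 8.0 in control arrays. Its groups did not overlap, and the difference was 0.31 ± 0.10 (SE; limma adjusted p = 0.487). Eif2ak3, the endoplasmic reticulum kinase PERK, differed by 0.24 ± 0.15, or 0.08 without sickle replicate 3.

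The other arms of the unfolded protein response were not called either, 0 of 19, with 6 positive differences and a median of -0.05. Manf, a chaperone-like secreted factor, measured 5.98, 5.84 and 5.94 in sickle arrays, against 6.12, 6.25 and 6.37 in control arrays, so all sickle values were below all control values (difference -0.33 ± 0.10, SE; limma adjusted p = 0.472). Sdf2l1 differed by -0.42 ± 0.18 and Edem1 by 0.31 ± 0.20 (0.08 without sickle replicate 3). The regulator NRF2, which shares Slc7a11 with ATF4, had 0 of 12 measured targets called, with a median of 0.09 (0.04 without sickle replicate 3). Gclm differed by 0.74, Hmox1 by 0.85 (0.54 without that array) and Me1 by -0.34, each without overlap between groups. Of 13 measured genes of sestrins and amino acid sensing 0 were called (median 0.09), with Sesn3 at 0.35, Sesn1 at 0.26 and Nprl3 at 0.11.

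Other amino acid transporters were mixed in direction. Of 26 measured, 0 were called, 18 had a positive difference, the median was 0.13 (0.06 without sickle replicate 3), 6 lay wholly above control and 4 wholly below. Slc6a6, the taurine transporter, measured 10.96, 10.78 and 10.94 in sickle arrays, against 10.41, 10.52 and 10.25 in control arrays (difference 0.50 ± 0.11, SE; limma adjusted p = 0.283). Slc43a1, the neutral amino acid transporter LAT3, measured 5.97, 5.73 and 6.45 in sickle arrays, against 5.38, 5.40 and 5.45 in control arrays (difference 0.64 ± 0.18, SE; limma adjusted p = 0.410; 0.44 without sickle replicate 3). Slc38a4, a system A transporter, went the other way with 7.57, 7.26 and 7.06 in sickle arrays, against 7.75, 7.65 and 7.91 in control arrays (difference -0.47 ± 0.15, SE; limma adjusted p = 0.461). All 3 were without overlap, and Slc7a5 exceeded each of the 26 in the size of its difference, which ran from -0.47 to 0.64.

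**Figure D3:**
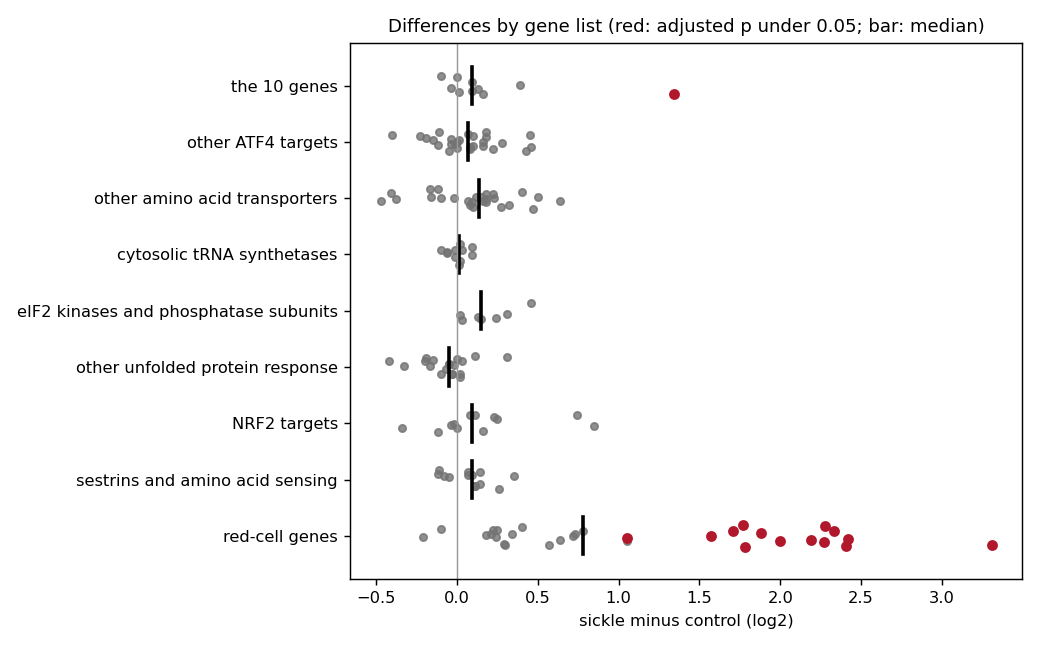
Differences (sickle minus control, log2) of the measured genes of 9 lists, 1 point per gene, red where limma's adjusted p was under 0.05, with a bar at each median. The medians lie between -0.05 and 0.15 for the first 8 lists and at 0.78 for the red-cell genes, and Slc7a5 at 1.34 is the single red point outside the red-cell list.

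Slc7a5 was next compared, array by array, with red-cell genes and with ATF4 genes, each value taken relative to its control mean. Slc7a5 stood at 0.99, 1.36 and 1.68 in sickle replicates 1, 2 and 3, and at -0.16, 0.07 and 0.09 in control replicates 1, 2 and 3. The median of 31 red-cell genes was 0.70, 0.91 and 1.0 in the sickle arrays, and 0.02, 0.00 and -0.06 in the control arrays. The median of the 9 genes other than Slc7a5 was -0.01, 0.00 and 0.11 in the sickle arrays, and -0.05, 0.02 and 0.06 in the control arrays. The median of the 27 other ATF4 targets was -0.02, 0.05 and 0.08 in the sickle arrays, and -0.03, 0.01 and 0.00 in the control arrays. In every sickle array Slc7a5 and the red-cell median were thus well above control while both ATF4 medians stayed within 0.11 of it.

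Of the 31 measured red-cell genes, 14 were called higher and 0 lower, with a median difference of 0.78 and 24 without overlap above control. Over all genes 0.167% were called higher and 7.61% lay wholly above control. Of the 31, 29 had a positive difference, and Gypc (-0.21) and Sptb (-0.10) a negative one. The erythroid regulators Klf1 (0.18), Tal1 (0.21), Nfe2 (0.22) and Gata1 (0.24) were not called, nor was Tfrc (0.25). The list was chosen with earlier results of these data known, so its direction is not independent evidence. Its 6 called genes of largest difference were the band 3 anion exchanger gene Slc4a1 (3.31), Tent5c (2.42), the carbonic anhydrase gene Car2 (2.41), Cd24a (2.33), the theta-globin gene Hbq1a (2.28) and the membrane skeleton gene Epb42 (2.27). The called genes closest to Slc7a5 in size were Rhag (1.57) and Tspan33 (1.05), chosen after their values were seen. The red-cell median was 0.78 without sickle replicate 3 and 0.85 without both replicates 3, where the median of the other 9 genes was 0.00 and 0.01.

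Likeness to Slc7a5 was measured for all 21505 other genes as the root mean square distance between profiles over the 6 arrays, each relative to its control mean. The nearest 5 named genes were Cdr2, Mpp1, Trim59, Tspan8 and AI662270, at distances from 0.115 to 0.207, where the median over all genes was 0.99. Mpp1, a palmitoylated scaffold of the red-cell membrane, measured 8.02, 8.65 and 8.71 in sickle arrays, against 7.07, 7.13 and 7.05 in control arrays, a difference of 1.38 ± 0.18 (SE; limma adjusted p = 0.0484). Cdr2, an antigen of cerebellar degeneration, measured 8.10, 8.65 and 8.64 in sickle arrays, against 7.01, 7.15 and 7.08 in control arrays. The 3 others differed by 1.26 (Trim59), 1.30 (Tspan8) and 1.38 (AI662270), and in all 5 the sickle values lay above the control values. Of these, Cdr2, Mpp1, Tspan8 and AI662270 were called and Trim59 was not (limma adjusted p = 0.156).

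The genes nearest to Slc7a5 held a larger share of the red-cell list than of the ATF4 lists. The shares of the cycling-cell and the macrophage and monocyte lists were larger still, at 100% and 66.7%. All lists were chosen with earlier results of these data known, so these shares are not independent evidence. Of the 31 red-cell genes, 17 (54.8%) were among the nearest 1075 genes, the nearest 5%, led by Tspan33 at rank 12 and Rhag at rank 17. Of the 27 other ATF4 targets, 3 (11.1%) were, and these were Ppp1r15a, Aldh18a1 and Nupr1. The difference of Nupr1 was 0.45, or -0.04 without sickle replicate 3, and without that array 2 of the 27 were among the nearest. Of the 9 genes other than Slc7a5, 1 (11.1%) was, Asns at rank 646. Slc3a2 ranked 5283, Ddit3 9042, Atf4 13186 and Trib3 13259. Slc43a1, at rank 117, was the nearest of the other amino acid transporters. The median distance was 0.74 for red-cell genes, 0.94 for other ATF4 targets and 0.91 for the 9 genes. Markers of cycling cells (0.58), lymphocytes (0.67), and macrophages and monocytes (0.69) had lower median distances than the red-cell genes. Fibroblast and matrix (0.80), endothelial (0.90), ventricular (1.0) and atrial (1.11) markers had higher ones. The nearest gene of the lymphocyte list, Ptprc, stood at rank 8, before Tspan33, and the next, Cd79a, at rank 37, after Rhag. With 6 arrays these distances describe the arrays and carry no test, and genes that differ between groups by a similar size come out near each other; Slc4a1, with its larger difference of 3.31, ranked 21404.

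**Figure D4:**
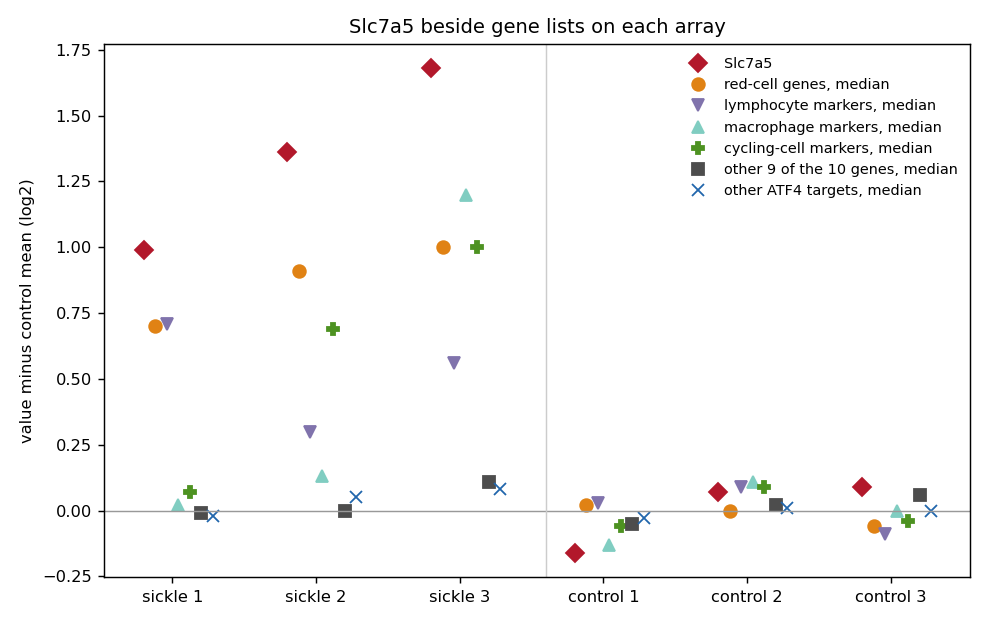
Slc7a5 and the medians of 6 gene lists on each array, as log2 value minus the control mean, with the 3 sickle arrays left of the 3 control arrays. Slc7a5 (0.99, 1.36 and 1.68 in sickle) and the medians of red-cell (0.70, 0.91 and 1.0) and lymphocyte genes (0.71, 0.30 and 0.56) are raised in every sickle array. The cycling-cell median is raised mainly in replicates 2 and 3 (0.69 and 1.0), and the macrophage median mainly in replicate 3 (1.20). Both ATF4 medians lie between -0.02 and 0.11 in sickle arrays.

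Several lists of markers of other cells had higher medians in sickle arrays, and some of these rested on sickle replicate 3. Of 12 macrophage and monocyte markers 11 had a positive difference (median 0.44, or 0.06 without sickle replicate 3), 8 were among the nearest 1075 genes, and their summed linear signal ran from 2664 to 6288 in sickle and from 2429 to 2802 in control arrays. All 9 measured markers of cycling cells had a positive difference and 0 were called (median 0.56, or 0.33 without sickle replicate 3), all 9 were among the nearest genes, and their sums ran from 324 to 599 in sickle and from 273 to 317 in control arrays. All 10 measured lymphocyte markers had a positive difference (median 0.49, or 0.51 without sickle replicate 3), Cd79a was called, 5 were among the nearest genes, and the sums ran from 533 to 693 in sickle and from 349 to 377 in control arrays. All 12 fibroblast and matrix markers had a positive difference (median 0.95, or 0.10 without sickle replicate 3), 4 were among the nearest genes, and the sums ran from 8144 to 26083 in sickle and from 7268 to 8465 in control arrays. Red-cell sums ran from 11061 to 15774 in sickle and from 4687 to 5356 in control arrays. Of 10 endothelial markers 8 had a positive difference (median 0.10), of 12 ventricular markers 4 (median -0.02) and of 6 atrial markers 3 (median -0.16, or 0.25 without both replicates 3), and 0 of these were called. No marker was at 0 on these arrays. Relative to the control mean, the cycling median was 0.07, 0.69 and 1.0 in sickle replicates 1, 2 and 3, where Slc7a5 was at 0.99, 1.36 and 1.68. In the same arrays the lymphocyte median was 0.71, 0.30 and 0.56. The macrophage median was 0.02, 0.13 and 1.20, and the fibroblast median 0.06, 0.18 and 2.30. The cycling, macrophage, fibroblast and red-cell (0.70, 0.91 and 1.0) medians thus all had the same order over the sickle arrays as Slc7a5. The lymphocyte median did not. Among called red-cell genes, Slc4a1, Tspan33 and Trim10 had the order of Slc7a5. Epb42, Rhag, Hbq1a, Slc25a37, Bpgm, Isg20, Ube2l6, Mkrn1, Car2, Cd24a and Tent5c were instead highest in sickle replicate 2 (Car2 at 9.98, 11.04 and 10.6). The part of red cells, cycling cells, lymphocytes and the other cell types in the Slc7a5 result was not tested.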

How the data were processed

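Total RNA of 3 sickle and 3 control left ventricles was measured on Mouse Gene 2.0 ST arrays (Affymetrix). The authors deposited log2 values for which RMA is named, per the submitters' processing notes; the sources used here state neither its version nor its settings, and the log2 scale follows from the range of the values. RMA as usually run corrects background, normalises by quantiles and summarises probes, which makes array distributions alike, so differences are relative. Of 25293 rows, 22030 had 1 symbol and gave 21506 genes (brightest row each, no dim filter); 685 with several symbols and 2578 with none were left out. Limma 3.58.1 in R 4.3.3 (lmFit, eBayes, group as the only term, two-sided, with residual degrees of freedom of 4 and a prior of 3.61) was fitted to all 21506 genes, with Benjamini-Hochberg adjustment at 0.05 and moderated standard errors and intervals. The fit was tested on simulated data. Arrays give no read depth; their number limits precision. Alternatives covered the variance model, a dim filter (mean of at least 5), normalisation, array weights, a block for replicate number, row choice and arrays left out. The named genes are the 10, the nearest 5 to Slc7a5, and from each list up to 6 called genes by size of difference. Where none passed, the 3 of smallest p were named. The cell type lists are given mainly as totals, with single genes named where they describe an array or a list. Other genes outside this rule, such as Nupr1, were named after their values were seen. The 10 genes and all lists were chosen with earlier results of these data known. The lists of other ATF4 targets and of transporters share Slc1a4, Slc38a2 and Slc7a3, and Ppp1r15a is in 2 lists. Listed genes without a row of 1 symbol (7 of 38 red-cell genes, 4 of 31 other ATF4 targets) were not analysed here. Promoter sequences come from RefSeq (GRCm38.p6). Same-numbered arrays shared little deviation from their group means (correlations of 0.11, -0.046 and 0.054 for replicates 1, 2 and 3). Differently numbered arrays gave -0.122 to 0.069. The main fit therefore did not pair the mice by number, though 3 arrays a group cannot exclude a pairing.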

Additional observations from a re-analysis of the deposited data

How the results depend on the processing

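Slc7a5 stayed higher in sickle under all 15 alternatives, by 1.17 to 1.52, but passed the adjusted threshold in 5 of them (limma adjusted p from 0.0201 to 0.273). It missed narrowly with robust eBayes (1.343, adjusted p = 0.0526), median centring (1.317, adjusted p = 0.0511) and the mean over a gene's rows (1.343, adjusted p = 0.0502), where 0 of the 10 genes were called in place of 1. With single arrays left out it ran from 1.173 to 1.521 and passed only without sickle replicate 1. With the replicate number as a block it was 1.343 (limma adjusted p = 0.0555), with 0 of the 10 and 12 of all genes called. With arrays left out, 0 to 36 of all genes were called, against 39, and 0 or 1 of the 10; the 0 for all genes came without both replicates 3, and the count was 21 without sickle replicate 2 or 3, 13 without control replicate 1, 5 without control replicate 2 and 4 without control replicate 3. Genes of the 10 without overlap numbered 2 to 4, the 4 without sickle replicate 3 (Slc7a5, Asns and Slc7a1 above, Atf4 below; 5793 of 21506 genes then had no overlap). Without that array 0 of the 9 other genes, against 1, were among the genes nearest to Slc7a5, and red-cell and ATF4 counts stayed within 1.5 times. The other 9 genes gave 0 calls in 134 alternative values (lowest adjusted p = 0.371), of which 23 turned sign: Ddit3 (-0.019 with a second quantile normalisation, -0.025 with median centring, -0.022 with array weights, and -0.075 to 0.09 with arrays left out), Slc7a11 (-0.019 with median centring, -0.003 with array weights), Slc3a2 (-0.026) and Trib3 (0.026) with array weights. With arrays left out, Slc3a2 ran from -0.118 to 0.243, Slc7a11 from -0.014 to 0.036, Trib3 from -0.111 to 0.153, Atf4 from -0.198 to 0.006, Chac1 from -0.031 to 0.277 and Sesn2 from -0.085 to 0.224. The cause of these changes was not tested. Arrays give no read depth, and 3 mice a group limit precision.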
